A study of Homo sapiens with 12 samples.

Results

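Genes of tight junctions, desmosomes and gap junctions were followed in Ishikawa cells, which derive from an adenocarcinoma of the human endometrium. The set held the scaffolds TJP1 and TJP3 and every claudin (CLDN), connexin of the GJA, GJB and GJC groups, desmocollin (DSC), desmoglein (DSG) and plakophilin (PKP) whose symbol was counted, with DSP, JUP, OCLN, F11R and EPCAM. This rule used gene names only and gave 30 genes described here of the 45320 counted, and 18 of them passed the filter on low counts that left 17020 genes for testing. The remaining 29 symbols of these families in the name table had no counted row and are not analysed here, among them CLDN3, GJA1 and GJB2.

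One arm expressed a hairpin against ARID1A (shARID1A) and the other a control hairpin (shNC); ARID1A is a DNA-binding subunit of SWI/SNF, a complex that remodels chromatin. All were grown without phenol red and in serum stripped of steroids. For 8 h they then received vehicle (DMSO), estradiol (E2) at 10 nM, or the same E2 dose together with fulvestrant at 100 nM. Fulvestrant blocks the estrogen receptor and promotes its degradation. Each of the 6 groups had 2 libraries, so each arm had 6. The sources used here do not say whether paired libraries are separate cultures, or how many hairpins or clones an arm has. The p-values therefore rest on the spread of libraries alone, possibly a technical one, and ARID1A loss cannot be told apart from any other difference between the lines.

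Tight junctions seal the space between epithelial cells: claudins and occludin span the membrane and the TJP proteins tie them to actin. Desmosomes join the keratin networks of neighbouring cells, with desmosomal cadherins outside, the armadillo proteins plakoglobin (JUP) and plakophilins beneath them, and desmoplakin (DSP) holding the filaments. Gap junctions are channels of connexins that pass small molecules between cells. In the endometrium, tight junctions and desmosomes are found in the luminal and glandular epithelium.

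The targeted gene followed the labels. ARID1A lay between 109.9 and 123.3 CPM (counts scaled to a common library size after TMM normalisation) in the shNC libraries and between 53.8 and 61.7 in the shARID1A libraries, which left 48.9% of the control level (log2 fold change -1.03, SE 0.04, edgeR adjusted p = 3.02e-19). Libraries held 28810351 to 38657162 counts, and the 30 junction genes took 0.0704% to 0.0905% of them. The share of mitochondrially encoded genes was 4.76% to 5.12% in shNC and 5.50% to 5.72% in shARID1A, and its part in any difference between the arms was not tested.

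The epithelial markers did not all bear out the label. KRT8 and KRT18, keratins of simple epithelia, were abundant at 589 ± 24.7 and 300.5 ± 17.4 CPM in shNC (SD, n = 6), and KRT7 and MUC1 were present at 431 ± 23.7 and 105 ± 8.20 CPM. CDH1, which encodes E-cadherin, had 0 to 21 counts per library, GRHL2 0 to 4, ESRP1 0 to 2 and KRT19 0 to 5. The CDH1, GRHL2 and ESRP1 rows each covered 14 of the 16 exons of a reference transcript. All 9 epithelial markers had a row, and their summed level was 1361 to 1494 CPM in shNC and 1057 to 1214 CPM in shARID1A, a difference whose part in the results was not tested. Of the genes that would mark other cells, COL1A1 reached 31.1 ± 3.86 CPM in shNC, while COL3A1, LUM, THY1, PTPRC, CD3E and KDR had at most 7 counts in any library. The 7 stromal markers summed to 32.2 to 44.0 CPM in shNC and 50.1 to 53.3 CPM in shARID1A, mostly COL1A1. Of the 3 tested, COL1A1 was higher (log2 fold change 0.60), and DCN (-2.91) and PDGFRB (-0.55) were lower, and their part in the results was not tested. In such bulk RNA, fewer cells of a type and less RNA per cell cannot be told apart.

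What a count row covered differed between junction genes. Its exons were compared by length with GENCODE 29, and the rows held mainly exons of transcripts outside the consensus coding set (CCDS). Over all genes, 12.8% of the CCDS transcripts of 3 or more exons had every exon length counted, against 77.7% of the other transcripts. For the junction genes these were 3 of 62 and 100 of 120. At least 2 in 3 of the reference exons were matched for 8 members: CLDN7, DSC3, EPCAM, F11R, OCLN, PKP4, TJP1 and TJP3. At the other end, the DSP row covered 754 bases and 2 of 24 exons, PKP2 1 of 13, PKP3 3 of 13, JUP 4 of 15 and GJC1 0 of 3. Low values of CLDN1 and CLDN4, with 1 of 4 and 0 of 2 exons matched, therefore say little about those genes.

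**Figure D1:**
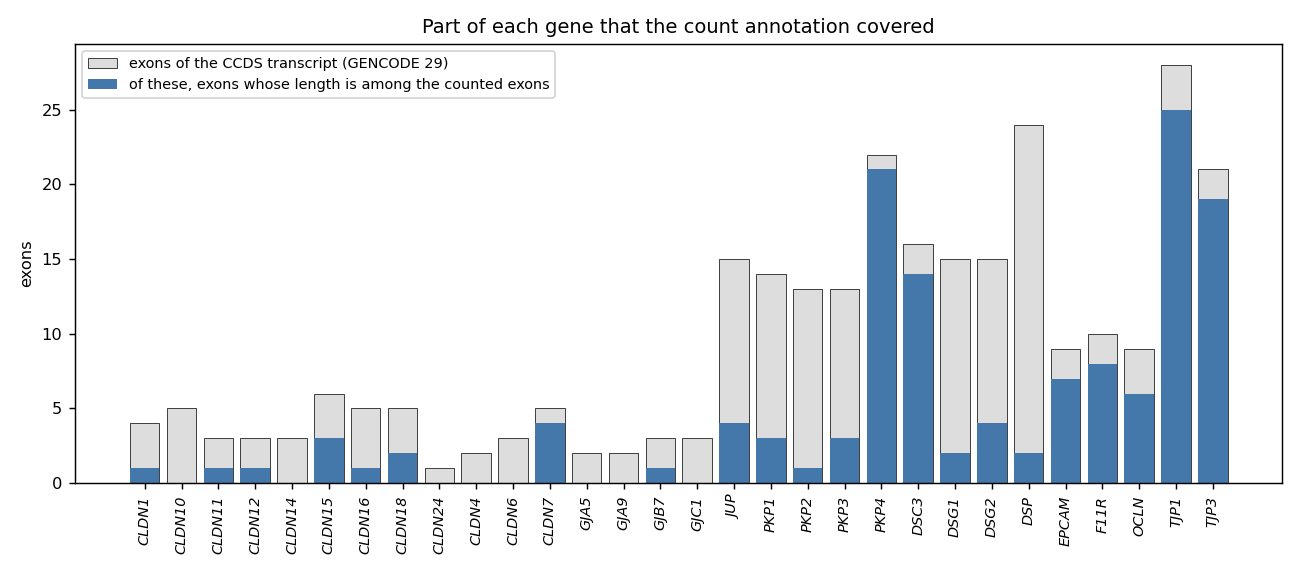
Exons of the reference transcript of each junction gene (grey, vertical axis in exons) and the number of them whose length was found among the counted exons (blue). TJP1 (25 of 28), PKP4 (21 of 22) and TJP3 (19 of 21) were nearly whole, and DSP (2 of 24) and PKP2 (1 of 13) were not.

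Among the 8 well-covered members levels could be compared per length. Levels were divided by the counted bases not shared with other counted genes. Shared bases were 269 of 1657 in CLDN7, 418 of 8072 in PKP4 and 71 of 2408 in F11R. Whether reads of those stretches were counted is not stated, so the values of these genes are uncertain. In shNC the order, in CPM per kb (SD, n = 6), began with CLDN7 at 33.9 ± 2.35, PKP4 at 10.98 ± 0.426, TJP1 at 7.32 ± 0.341 and DSC3 at 3.31 ± 0.224. Below these came F11R at 3.22 ± 0.470, EPCAM at 0.707 ± 0.137, OCLN at 0.379 ± 0.218 and TJP3 at 0.286 ± 0.134. DSC3 and F11R lay within their spread of each other, and so did OCLN and TJP3. In this cell line the most abundant of them was thus a claudin, and OCLN and TJP3 stood near the bottom.

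Across the 3 treatments together, shARID1A libraries differed from shNC libraries in 10 of the 18 tested junction genes, 55.6% beside 43.1% of all genes tested (edgeR quasi-likelihood test, adjusted p under 0.05). Of these, 3 were higher (JUP, PKP3 and F11R), 16.7% beside 20.3% of all genes. Another 7 were lower (TJP3, OCLN, EPCAM, GJC1, DSP, CLDN12 and PKP2), 38.9% beside 22.8%. The median log2 fold change was -0.08 over the tested members and -0.02 over all tested genes. Libraries of the arms did not overlap at all for 5 members, 27.8% beside 22% of all genes: JUP and PKP3 were higher in every shARID1A library (11.1% beside 11.4%), and DSP, EPCAM and OCLN were lower in every one (16.7% beside 10.6%). The junction genes thus moved in both directions, as all tested genes did. Of the plakophilins PKP3 rose and PKP2 fell, the PKP2 call being kept in only 6 of 17 alternative settings.

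**Figure D2:**
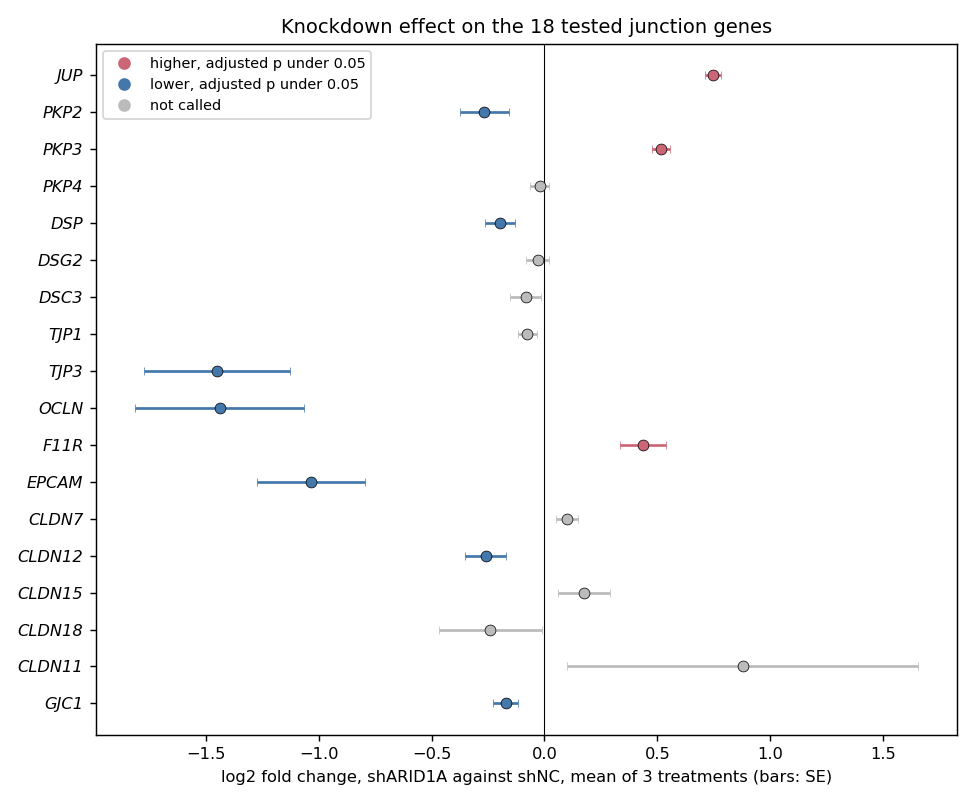
Log2 fold change of shARID1A against shNC, averaged over 3 treatments, for the 18 tested junction genes; bars are the SE of the fit. Red points (3) were higher and blue points (7) lower at an adjusted p under 0.05; grey points (8) were not called.

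The desmosomal plaque held the smallest adjusted p-values, those of JUP and PKP3. JUP, plakoglobin, links desmosomal cadherins to desmoplakin and is also found in adherens junctions. It ranged from 244 to 296 CPM (median 274) in shNC and from 436 to 484 (median 448) in shARID1A. Every shARID1A library was above every shNC library, and the rise was 1.68-fold (log2 fold change 0.75, SE 0.04, edgeR adjusted p = 5.73e-17). The JUP row shares 1015 of its 3305 counted bases with KRT17, a keratin gene on the same chromosome, which itself rose by a log2 fold change of 0.42 (SE 0.04, edgeR adjusted p = 2.19e-11). The files do not separate reads of the shared stretch, so its part in the JUP value was not tested.

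RefSeq places starts of JUP at 2 sites for which sequence was at hand, and the 250 bases before each are shown because JUP had the firmest change of the set. They are from GRCh38.p14, chr17:41785977-41786226 and chr17:41786712-41786961, both on the minus strand. Capitals mark matches to 6 short motifs searched on both strands: the E-box CACCTG that ZEB and SNAI factors bind, the grainyhead-like motif AACCNGTT, the AP-1 motif TGANTCA, the TFAP2 motif GCCNNNGGC, the GC box GGGCGG and the palindromic estrogen response element.
JUP, inner start: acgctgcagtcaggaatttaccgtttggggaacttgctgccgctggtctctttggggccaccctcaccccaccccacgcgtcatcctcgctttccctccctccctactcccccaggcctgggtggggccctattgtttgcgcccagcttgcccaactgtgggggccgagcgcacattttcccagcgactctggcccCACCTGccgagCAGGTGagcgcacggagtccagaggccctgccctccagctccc
JUP, outer start: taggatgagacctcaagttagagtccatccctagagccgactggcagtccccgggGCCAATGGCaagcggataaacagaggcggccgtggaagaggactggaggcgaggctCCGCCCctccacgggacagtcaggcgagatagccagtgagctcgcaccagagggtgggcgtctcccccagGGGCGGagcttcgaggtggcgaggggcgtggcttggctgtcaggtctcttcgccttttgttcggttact
The inner window held E-box letters at positions -54 and -43, counted back from the start, and the outer window held the TFAP2 letters at -195 and GC boxes at -139 and -69. In windows of this length, E-box letters occurred in 17.5% of 34943 promoters and in 9 of the 23 windows of tested junction genes. For TFAP2 this was 19.7% and 6 windows, for the GC box 42.5% and 15 windows, for AP-1 6.59% and 1 window. The grainyhead-like motif occurred in 1.49% and the estrogen response element in 0.0401% of promoters, and in 0 junction windows each. These windows are rich in G and C (66% and 63.6%, against a median of 58%), which bears on GC-rich motifs, and a match is a description of letters only.

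PKP3, a plakophilin found in desmosomes of many epithelia, also rose. It ranged from 70.5 to 84.6 CPM (median 77.2) in shNC and from 105 to 118 (median 112) in shARID1A, with no overlap (log2 fold change 0.52, SE 0.04, edgeR adjusted p = 5.18e-12). Its relative PKP2, the main plakophilin of heart muscle and simple epithelia, moved the other way, from a median of 7.80 to 6.76 CPM with overlapping arms (log2 fold change -0.27, SE 0.11, edgeR adjusted p = 0.0445). That call was kept in only 6 of 17 alternative settings. PKP4, which resembles the adherens junction protein p120 catenin, had medians of 83.5 and 83.2 CPM (log2 fold change -0.02, SE 0.04) and was not called.

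DSP, the plakin that anchors keratin, fell from 22.1 to 24.6 CPM in shNC to 17.9 to 21.9 CPM in shARID1A, a narrow gap between arms that did not overlap (log2 fold change -0.20, SE 0.07, edgeR adjusted p = 0.0144). The call was lost in 3 of 17 alternatives, each leaving out 1 shARID1A library: replicate 2 with DMSO (adjusted p = 0.0808), replicate 2 with E2 (0.0610) and replicate 1 with E2 plus fulvestrant (0.0647). Of the desmosomal cadherins, which hold neighbouring cells together, DSG2 had medians of 31.9 and 31.1 CPM (log2 fold change -0.03, SE 0.05) and DSC3 of 23.7 and 21.9 CPM (-0.08, SE 0.07), and neither was called. Within the plaque, JUP and PKP3 thus rose while DSP and PKP2 fell, and the cadherins they bind were not called. The PKP2 call was kept in only 6 of 17 alternatives. The rows of JUP, PKP3, DSP and PKP2 matched only 4 of 15, 3 of 13, 2 of 24 and 1 of 13 reference exons. Their levels may therefore not stand for the whole genes.

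Of the tight junction scaffolds, TJP1, or ZO-1, which binds claudins and actin, had medians of 77.7 and 73.2 CPM (log2 fold change -0.08, SE 0.04) and was not called. TJP3, or ZO-3, fell. In shNC its counts were 32 and 26 under vehicle, 52 and 67 under E2, and 17 and 28 once fulvestrant was added. In shARID1A they were 12 and 8, then 22 and 24, then 1 and 14. Each treatment had its shARID1A libraries below its shNC libraries, and the fold change was 2.73 in favour of shNC (log2 fold change -1.45, SE 0.32, edgeR adjusted p = 0.000445). Without replicate 2 of shARID1A with E2 plus fulvestrant, which leaves the library of 1 count alone in its group, the log2 fold change was -2.37. Without replicate 1 of that group, the library of 1 count itself, it was -1.16.

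TJP3 had the largest estimate among the genes called over the 3 treatments, within its SE of that of OCLN, and 2 windows before its RefSeq starts are shown for comparison with JUP. They lie on the plus strand of GRCh38.p14 at chr19:3708134-3708383 and chr19:3721487-3721736, with the same motifs in capitals.
TJP3, upstream start: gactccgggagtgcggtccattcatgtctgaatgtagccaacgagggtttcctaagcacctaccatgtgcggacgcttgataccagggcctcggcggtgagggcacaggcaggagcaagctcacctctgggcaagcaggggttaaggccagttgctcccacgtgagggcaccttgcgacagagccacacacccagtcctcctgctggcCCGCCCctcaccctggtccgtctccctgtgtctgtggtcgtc
TJP3, downstream start: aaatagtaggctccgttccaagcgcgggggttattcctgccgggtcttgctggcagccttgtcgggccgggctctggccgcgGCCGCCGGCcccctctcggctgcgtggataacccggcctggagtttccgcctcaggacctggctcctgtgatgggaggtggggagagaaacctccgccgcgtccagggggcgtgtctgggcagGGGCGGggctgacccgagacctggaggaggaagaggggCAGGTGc
The upstream window held a GC box at -42. The downstream window held TFAP2 letters at -168, a GC box at -45 and an E-box at -7. E-box letters were thus found in a window of JUP and in a window of TJP3, and their part in either change was not tested.

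The membrane proteins of the tight junction went apart. OCLN, occludin, had 16 to 59 counts in shNC libraries and 6 to 13 in shARID1A libraries, and the arms did not overlap (log2 fold change -1.44, SE 0.37, edgeR adjusted p = 0.00207). Its mean in shNC was 0.920 CPM, under the 1 CPM set for full statistics, so its values are given as a gene picked out after they were seen. Replicate 1 of shNC with E2 alone reached 1.88 CPM, while the other 11 libraries lay at 1.09 CPM or below. Without that replicate the OCLN log2 fold change over the 3 treatments was -1.03. The gene has partial near-identical copies on its own chromosome, which makes its counts uncertain. F11R, or JAM-A, an immunoglobulin-like adhesion protein, rose from 6.03 to 9.34 CPM (median 7.51) to 8.44 to 13.8 CPM (median 9.80), and the arms overlapped (log2 fold change 0.44, SE 0.10, edgeR adjusted p = 0.000621). Part of the F11R row is shared with TSTD1, its neighbour.

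EPCAM, an adhesion molecule of epithelial cells that binds claudins, fell. It ranged from 1.28 to 1.97 CPM (median 1.37) in shNC and from 0.383 to 1.02 (median 0.722) in shARID1A, with no overlap (log2 fold change -1.03, SE 0.24, edgeR adjusted p = 0.000638). These are 39 to 63 counts against 12 to 31 counts per library, a low level in both arms for a gene that marks epithelium.

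Of the 12 claudins counted, 5 passed the filter. CLDN7, a claudin of many epithelia and a partner of EPCAM, had medians of 46.8 and 49.4 CPM and was not called (log2 fold change 0.10, SE 0.05). The CLDN12 row matched 1 of 3 reference exons and shares 754 of its 3530 counted bases with CDK14, CTB-13L3.1 and AC006153.3. The part of that stretch in the CLDN12 value was not tested. CLDN12, which lacks the usual scaffold-binding tail of claudins, had medians of 12.6 and 10.5 CPM with overlapping arms (log2 fold change -0.26, SE 0.09, edgeR adjusted p = 0.0186). That call was lost without replicate 2 of shNC with DMSO (adjusted p = 0.0778), without the second E2 library of shARID1A (0.131) and without its second E2 plus fulvestrant library (0.0678). CLDN15, a pore-forming claudin, had medians of 4.50 and 5.22 CPM, CLDN18 of 1.46 and 1.38 CPM, and CLDN11, with 0 to 20 counts in a library, stayed under 1 CPM throughout. None of these 3 was called. The abundant claudin, CLDN7, was thus not among the genes called.

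GJC1, or connexin 45, was the only connexin of the 4 counted that passed the filter. Its row matched 0 of 3 reference exons by length, so its level may not stand for the whole gene. GJC1 ranged from 35.3 to 40.8 CPM (median 37.5) in shNC and from 29.3 to 36.1 (median 33.5) in shARID1A (log2 fold change -0.17, SE 0.06, edgeR adjusted p = 0.0136). The arms overlapped, and the call was lost without replicate 1 of shARID1A with DMSO (adjusted p = 0.0690) or replicate 1 of shARID1A with E2 (0.0666). GJA5, GJA9 and GJB7 did not pass.

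The 12 members that did not pass were CLDN1, CLDN4, CLDN6, CLDN10, CLDN14, CLDN16, CLDN24, DSG1, GJA5, GJA9, GJB7 and PKP1, and no library held more than 13 counts of any of them. CLDN10, DSG1, GJA5 and GJA9 had 0 counts in all libraries. All 2377 counted bases of GJA9 are shared with other counted genes. The rows of CLDN10, GJA5 and DSG1 matched 0 of 5, 0 of 2 and 2 of 15 reference exons. These zeros therefore say little about whether the genes are expressed. A floor of 3 counts was 0.0776 to 0.104 CPM, covering counting error only.

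**Figure D3:**
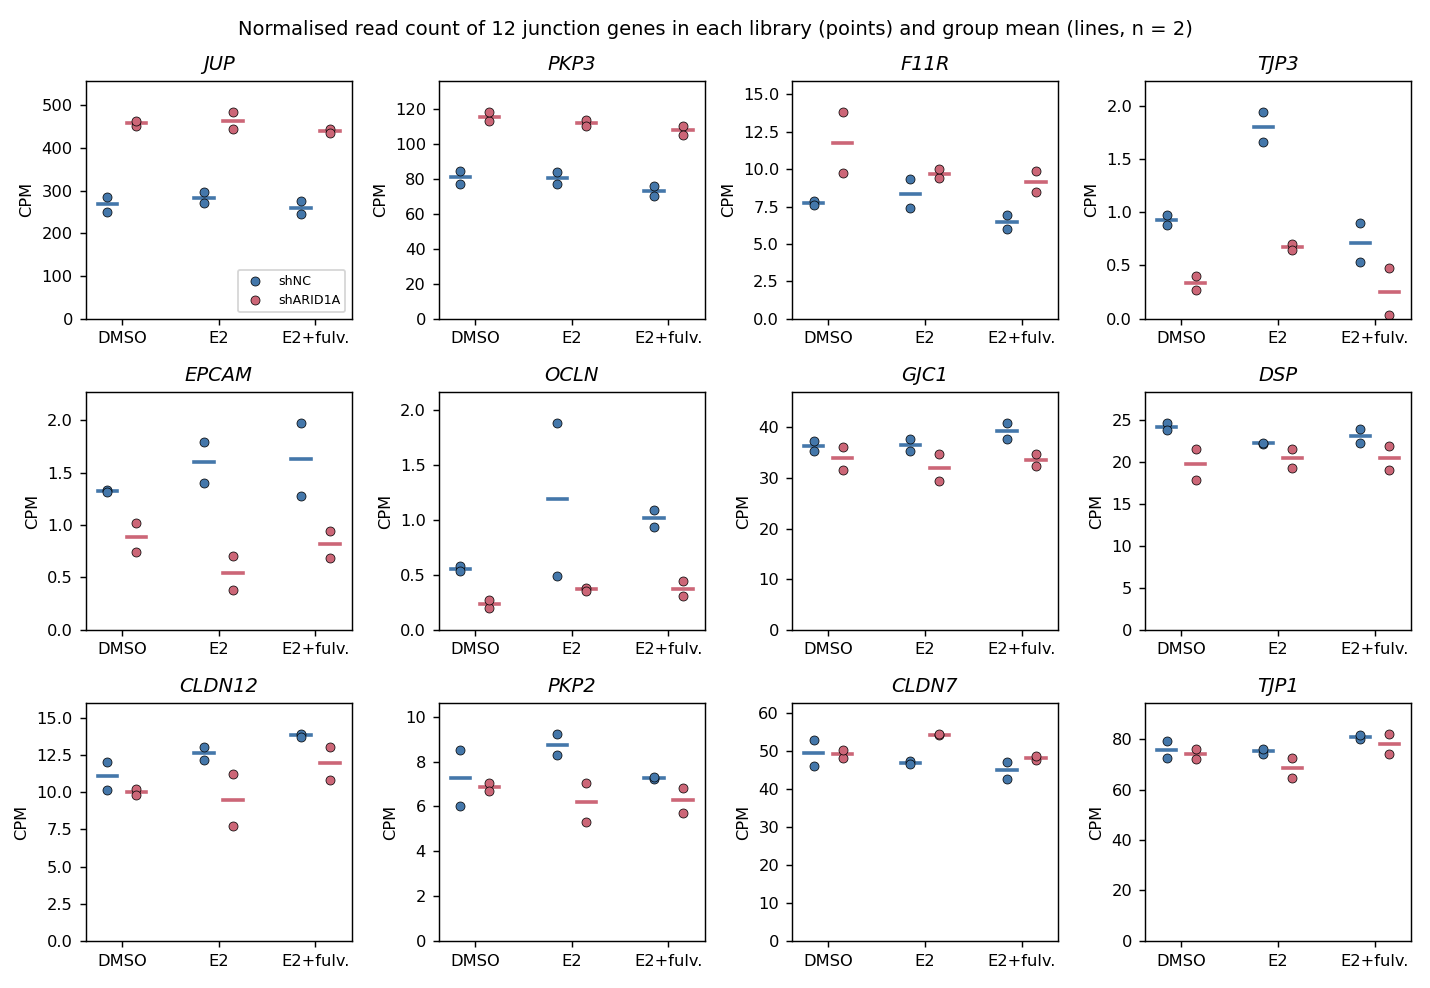
Normalised read count (CPM, vertical axes from 0) of 12 junction genes in each library by treatment, shNC in blue and shARID1A in red; lines are means of 2 libraries. JUP and PKP3 lie higher in every shARID1A library, and DSP, EPCAM and OCLN lower; CLDN7 and TJP1 overlap.

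The same contrast was then taken within each treatment, where each arm has 2 libraries. JUP and PKP3 were higher in all 3. The log2 fold changes of JUP, in the order DMSO, E2 and E2 plus fulvestrant, were 0.78, 0.71 and 0.76 (SE 0.06 to 0.07). Those of PKP3 were 0.51, 0.48 and 0.56. These calls held in every alternative that used these libraries.

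With DMSO 3 of the 18 members were called, 16.7% beside 19.2% of all genes. All 3 were higher, beside 9.7% of all genes, the third being F11R (log2 fold change 0.60, edgeR adjusted p = 0.0100). Without replicate 2 of shARID1A, the highest F11R library, its adjusted p was 0.329, and without replicate 2 of shNC it was 0.0720. In the same contrast 0 members were lower in edgeR and in DESeq2, beside 9.5% of all genes. At an unadjusted p under 0.05, 5 members differed in either direction, 27.8% beside 30.1% of all genes. With E2 plus fulvestrant 3 members were called, beside 24.2% of all genes, and all 3 were higher, beside 11.4%, F11R by 0.50 (edgeR adjusted p = 0.0492). Again 0 were lower in both tools, beside 12.8%, and 7 differed at an unadjusted p under 0.05, 38.9% beside 34.2% of all genes. The F11R call was lost when any of the 4 libraries was left out (adjusted p 0.0677 to 0.280).

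With E2 8 members were called, 44.4% beside 27.2% of all genes. Of these, 5 were lower, 27.8% beside 13.8%: TJP3, EPCAM, OCLN, CLDN12 and PKP2. Another 3 were higher, beside 13.4%: JUP, PKP3 and CLDN11. CLDN11 had 2 and 0 counts in shNC and 5 and 20 in shARID1A, and this call was lost when any of 3 of the 4 libraries was left out. EPCAM fell by 1.53 on the log2 scale (SE 0.42, edgeR adjusted p = 0.0063). OCLN fell by 1.65, but by 0.42 without replicate 1 of shNC (adjusted p = 0.733). TJP3 had nearly the same size in all 3 treatments, at -1.46, -1.42 and -1.47, with adjusted p of 0.0805, 0.0075 and 0.114. The count of 5 lower members was 1 to 3 when any 1 of the 4 E2 libraries was left out and 2 in DESeq2. No junction gene was called for a difference between the arms of the E2 effect (0.0294% of all genes) or of the fulvestrant effect (0.0118%), so a knockdown effect that depends on hormone was not shown. By unadjusted p under 0.05, 1 member was found in each (5.56% beside 6.34% and 3.48% of all genes), and DESeq2 also called 0.

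**Figure D4:**
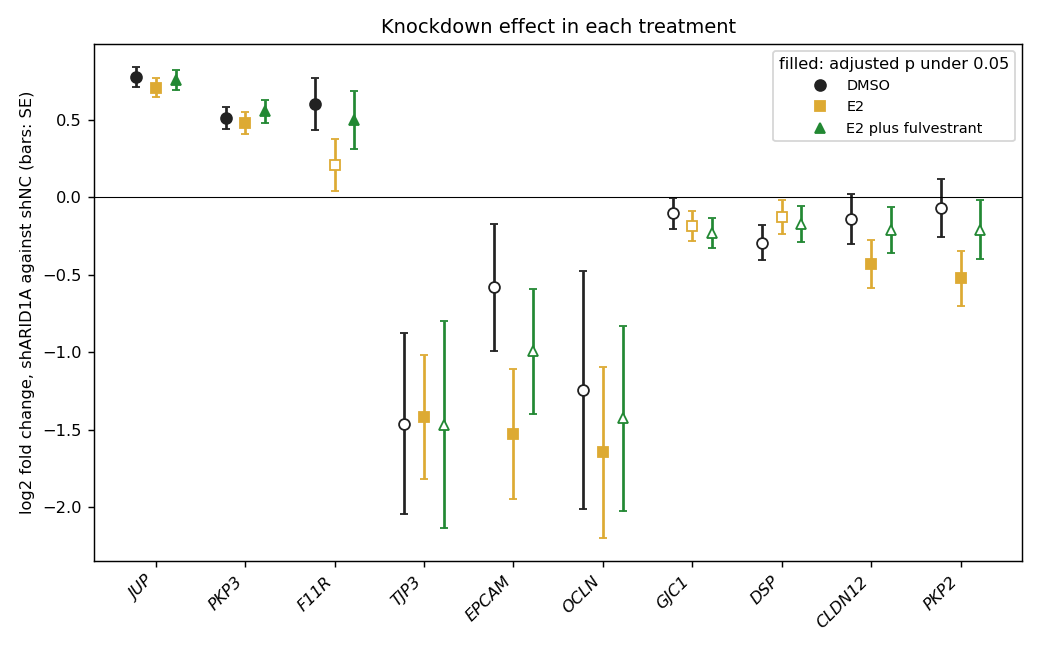
Log2 fold change of shARID1A against shNC within each treatment for the 10 junction genes called over the 3 treatments; bars are the SE of the fit and filled symbols have an adjusted p under 0.05. JUP and PKP3 are filled in all 3 treatments, and TJP3 holds a like size with wide bars.

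No junction gene passed the test for a hormone treatment. By edgeR 0 of 18 members were called for E2 against DMSO in shNC (0.00588% of all genes), in shARID1A (0.0235%) or in both arms together (0.00588%). The same held for E2 plus fulvestrant against E2 in both arms (0.0646%) and against DMSO (0%). At an unadjusted p under 0.05 there were 2, 1, 1, 6 and 3 members in these 5 comparisons, and DESeq2 called 0 in each. As shares of the 18 members these were 11.1%, 5.56%, 5.56%, 33.3% and 16.7%. The shares of all genes at that unadjusted threshold were 3.85%, 6.61%, 4.09%, 14.6% and 8.35%. Few genes were called anywhere, so these counts cannot set the junction genes apart. Estrogen receptor RNA was low, with 2 to 34 counts of ESR1 per library.

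Averaged over both arms, TJP3 had the largest estimates for E2 against DMSO and for adding fulvestrant, and it is named here after they were seen. CLDN11, at 0 to 20 counts per library, had larger ones within each arm for E2 and for E2 plus fulvestrant against DMSO, none of them called. For TJP3 the E2 libraries were the highest of each arm, by the counts given above. The TJP3 log2 fold change was 0.98 (SE 0.36, edgeR adjusted p = 0.999) for E2 over both arms. It was -1.36 (SE 0.39, edgeR adjusted p = 0.117) for adding fulvestrant. Both comparisons use the same E2 libraries. With no filter on low counts the second had an adjusted p of 0.0393, and it lay between 0.0966 and 0.484 in the other edgeR alternatives. Without replicate 2 of shARID1A with E2 plus fulvestrant the value was -2.74, and without replicate 1 of that group -0.92. For abundant members the estimates were narrow: JUP had 0.05 (SE 0.04) for E2 and -0.10 (SE 0.05) for fulvestrant, CLDN7 0.03 (SE 0.06) and -0.12 (SE 0.06), and TJP1 -0.07 (SE 0.05) and 0.15 (SE 0.05). None of these passed the adjusted threshold.

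**Figure D5:**
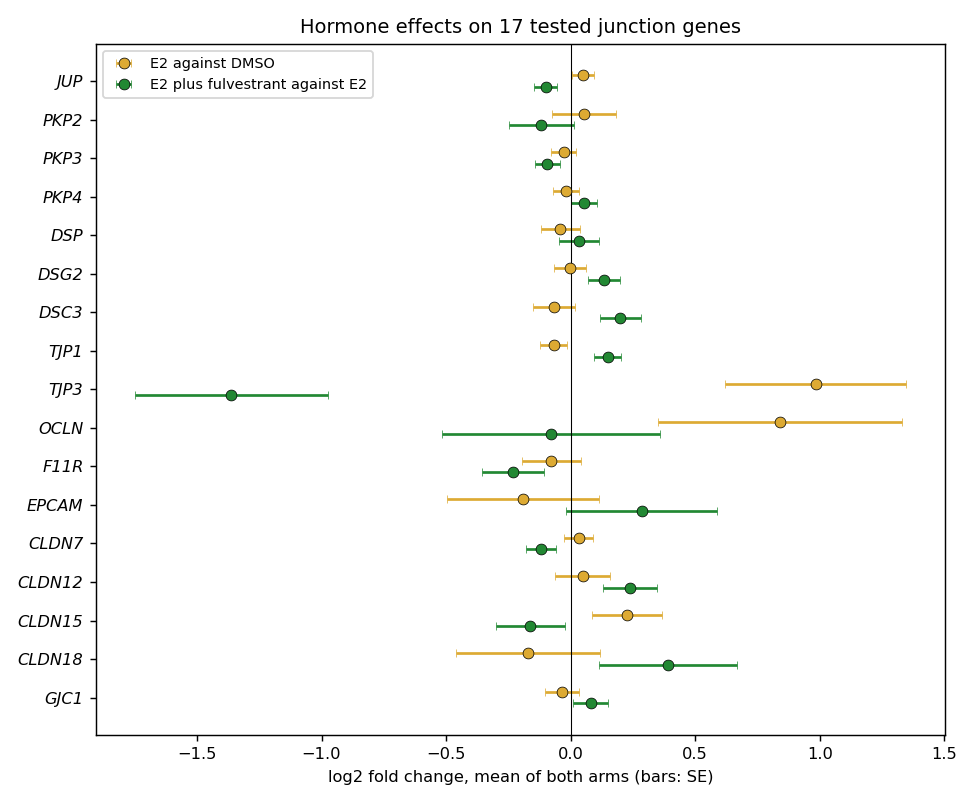
Log2 fold change for E2 against DMSO (yellow) and E2 plus fulvestrant against E2 (green), averaged over both arms, for 17 tested junction genes (CLDN11, under 1 CPM, is not drawn); bars are the SE of the fit. None was called; TJP3 lies farthest from 0, at 0.98 and -1.36.

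Genes that work with these junctions were read from lists. Of 22 tested tight junction partners, 4 rose and 9 fell in shARID1A over the 3 treatments, beside 20.3% and 22.8% of all genes, with a median of -0.09. The angiomotin relatives AMOTL1 and AMOTL2 rose by 0.73 and 0.33 on the log2 scale (adjusted p = 6.95e-17 and 9.25e-10, edgeR). ARHGEF2, a guanine nucleotide exchange factor held at tight junctions, fell by 0.47, YBX3, a partner of ZO-1, fell by 0.26, and the polarity genes PRKCI and PARD6A fell by 0.33 and 0.64 (adjusted p 1.07e-13 to 4.56e-05, edgeR).

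Of 9 tested desmosome and intermediate filament partners, 2 rose and 6 fell, beside the same 20.3% and 22.8% of all genes, with a median of -0.54. KRT8 fell by 0.75 and KRT18 by 0.54 on the log2 scale, from 300.5 ± 17.4 to 206 ± 7.49 CPM for KRT18 (SD, n = 6). These keratins pair with each other, and both have many processed copies in the genome, so reads may be split among them. The linkers DST and PPL fell by 1.16 and 2.35, and KRT15 fell by 2.77, the last from 2.001 ± 0.580 CPM. KRT17 rose by 0.42, on a row that shares exons with JUP. All 6 had an edgeR adjusted p of at most 6.88e-08. KRT7, another keratin of simple epithelia, rose by 0.23, and the linker PLEC was not called (log2 fold change 0.05, SE 0.04); these last were picked out after their values were seen.

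Among gap junction relatives outside the connexin groups, 3 were tested, and 2 rose and 1 fell, beside 20.3% and 22.8% of all genes. So short a list cannot be set apart from all genes. The channel genes PANX2 and PANX1 rose by 0.53 and 0.26 (edgeR adjusted p = 7.49e-07 and 6.79e-05). CNST, a connexin-binding recycling protein, fell by 0.34 (edgeR adjusted p = 0.00569). Of 13 adherens junction genes 4 rose and 5 fell, beside 20.3% and 22.8% of all genes, with a median of 0.02. CDH2, N-cadherin, fell from 37.3 ± 2.46 to 13.8 ± 1.09 CPM (SD, n = 6; log2 fold change -1.43, SE 0.06, edgeR adjusted p = 2.44e-18). The actin linker CTNNA1 rose by 0.23, and MLLT4 (afadin), PVRL1 (nectin 1), LIMA1 and VCL fell by 0.52, 0.92, 0.25 and 0.15.

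Of 10 tested regulators of epithelial state, 4 rose and 3 fell, beside 20.3% and 22.8% of all genes, with a median of 0.10. KLF4 rose by 0.76, TFAP2A by 0.64 and the splicing factor ESRP2 by 0.43 on the log2 scale. ZEB1, a repressor of epithelial genes that binds the E-box searched above, fell from 31.5 ± 3.57 to 19.7 ± 1.67 CPM (SD, n = 6; log2 fold change -0.67, SE 0.06, edgeR adjusted p = 2.58e-10). ELF3 fell by 0.35 and GRHL1, a grainyhead-like factor, by 0.73. Whether any of these factors acts on the junction genes was not tested.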

How the data were processed

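The authors deposited raw counts: reads per gene, without normalisation. Reads were trimmed with Trim Galore and cutadapt, aligned with Subread 2.0.0 to hg19 and counted over exons with featureCounts 2.0.0, per the submitters' processing notes and the file headers. No setting for strand or for reads with several alignments is in the headers, so genes that overlap or have copies are uncertain, and the counted exons leave out parts of many genes.

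In R 4.3.3, edgeR 4.0.16 was fitted to all 12 libraries with 1 mean per group, after filterByExpr and TMM scaling. Contrasts were tested with the quasi-likelihood F-test, with Benjamini-Hochberg adjustment over 17020 genes, and genes with an adjusted p under 0.05 are called. SE is the log2 fold change divided by the square root of F. The scripts were tested on simulated data. DESeq2 1.42.0, other scaling factors, no filter, fits of only the groups compared, a replicate block and leaving out each library were alternatives.

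The members and lists were chosen with earlier results of these data known, and results for some genes of these families are not reported here. Full statistics are for members called over 3 treatments with a mean of at least 1 CPM in an arm, and up to 6 partners per list are named by smallest adjusted p. Promoter sequences are from RefSeq on GRCh38.p14; 13 of the 18 tested members matched.

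Replicates differed by 5.19 to 7.97 times counting error (chi-square per degree of freedom).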

Additional observations from a re-analysis of the deposited data

Results flagged for a closer look

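F11R in shARID1A had 1 library apart from the other 5. Replicate 2 with DMSO was at 13.8 CPM, and the others lay between 8.44 and 10.0 CPM, so the gap was 0.71 of the whole range (above Dixon's 95% critical value for 6 samples). Such a gap was looked for in 36 sets of 6 libraries and found in 1, and chance alone gives about 1 in 20. Over the 3 treatments F11R was still called without that library (log2 fold change 0.35, edgeR adjusted p = 0.0069), but within DMSO it was not (0.33, adjusted p = 0.329).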

How the results depend on the processing

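JUP, PKP3, F11R, TJP3, EPCAM and OCLN were called over the 3 treatments in all 17 alternatives, while PKP2 was called in 6, CLDN12 and DSP in 14 and GJC1 in 15. None of these 10 log2 fold changes over the 3 treatments changed sign. Of 354 alternative values, 326 kept their side of the threshold or stayed within 1.5 times the count. With no filter on low counts the members called for fulvestrant in both arms were 1 instead of 0 (TJP3), and DESeq2 found 2 members lower with E2 instead of 5. The cause of either was not tested.

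When 1 library was left out, members lower over the 3 treatments numbered 4 to 7 (4 without replicate 2 of shARID1A with E2). Members lower with E2 numbered 1 to 3: 1 without replicate 2 of either arm, 3 without replicate 1 of either. Members lower with DMSO and with E2 plus fulvestrant numbered 0 to 1 each. Higher members numbered 3 to 4 over the 3 treatments, 2 to 3 with DMSO, 2 to 3 with E2 and 2 with E2 plus fulvestrant, and hormone calls stayed at 0. An arm left with 1 library is assumed to vary like the others.

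With the replicate number as a block, 3 members were higher and 7 lower over the 3 treatments, as without it, and no call changed. Same-numbered libraries of 2 groups had correlated deviations of -0.228 to 0.283 over 15 pairs of groups, 7 of them over 0.1. The 3 pairs within shNC were all over 0.1 (0.168 to 0.283), and those within shARID1A ran from -0.176 to 0.128. The labels do not say what a number marks, so the block is given only here.

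EPCAM had only 12 to 63 counts and TJP3 1 to 67 per library, which limits what a single treatment with 2 libraries per arm can show.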
